A study of Rattus norvegicus with 16 samples.

Results

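Kupffer cell and macrophage markers were followed across the liver libraries as 10 genes listed by symbol, namely Cd163, Marco, Clec4f, Vsig4, Timd4, Cd5l, Cd68, Adgre1, Csf1r and Mrc1. They were taken by name, with no threshold on a level or fold change, although earlier results of these data were known. Counts of markers called are therefore set beside the share over all genes only as a description. Of these 10 genes, 9 were found among the 17055 gene symbols of the count files and the level of Timd4 was not analysed here. Adgre1 is carried in the files under its older symbol Emr1. All 9 genes passed the filter on low counts in every comparison, and the smallest number of reads behind any value was 186, for Adgre1 in an isoflurane control library.

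The study exposed male Sprague-Dawley rats aged 10 weeks to sepsis by cecal ligation and puncture (CLP) or to a control operation in which the cecum was brought out and returned. Isoflurane-Sepsis rats and isoflurane controls were induced and maintained with isoflurane, a volatile anesthetic. Propofol-Sepsis rats and propofol controls received ketamine and xylazine for induction and then propofol, an intravenous anesthetic. Livers were taken 8 h after the celiotomy, and each library came from the pooled liver tissue of 3 rats, which gave 4 libraries in each of the 4 groups and 16 in all from 48 rats. Isoflurane-Sepsis comprises libraries 1 to 4 and its controls libraries 5 to 8, Propofol-Sepsis comprises libraries 9 to 12 and its controls libraries 13 to 16, and 4 values of a group are given in that order. The spread is between pools and not between single rats. Because the induction drugs also differed, and the deposited files carry a different name prefix for each anesthetic, these cannot be told apart from the maintenance drug in any comparison between anesthetics.

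Per library, between 14199422 and 49937173 reads were counted on genes. The scaling factors used for depth and composition (TMM) lay between 0.920 and 0.979 in the 8 isoflurane libraries and between 1.02 and 1.09 in the 8 propofol libraries. Levels are given as CPM, the reads of a gene relative to the library's total after that scaling. They are not divided by transcript length and are compared between libraries and not between genes. A gene was called when its adjusted p from the quasi-likelihood test of edgeR was below 0.05. The hepatocyte marker Alb (albumin) stood at 89786 ± 3215 CPM (SD, n = 4) in isoflurane controls. In propofol controls it stood lower, at 64833 ± 3721 CPM (isoflurane minus propofol log2 0.47, edgeR adjusted p = 0.000146).

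Kupffer cells are the resident macrophages of the liver. They sit in the sinusoids, where they take bacteria, complement-coated particles, haemoglobin and aged cells out of portal blood through surface receptors. Their identity is held by the receptor Csf1r and by transcription factors such as PU.1 and LXR alpha, and in inflammation they are joined by monocytes and neutrophils that carry some of the same markers. In whole liver RNA, fewer cells of a type and less RNA of a gene in each cell cannot be told apart.

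The markers are shown first as sequence, for the 2 genes that fell with both anesthetics (Clec4f and Mrc1) and the 2 with the largest rises under isoflurane (Adgre1 and Marco). Each line is the 250 bases before the RefSeq transcription start on build GRCr8, read 5′ to 3′ on the gene's own strand. The windows are chr4:117696408-117696657 on the minus strand for Clec4f, chr17:82157475-82157724 on the plus strand for Mrc1, chr13:34201256-34201505 on the minus strand for Marco and chr9:2329190-2329439 on the plus strand for Adgre1. Capitals mark GAGGAA, the core letters recognised by PU.1, or their reverse complement TTCCTC.
Clec4f: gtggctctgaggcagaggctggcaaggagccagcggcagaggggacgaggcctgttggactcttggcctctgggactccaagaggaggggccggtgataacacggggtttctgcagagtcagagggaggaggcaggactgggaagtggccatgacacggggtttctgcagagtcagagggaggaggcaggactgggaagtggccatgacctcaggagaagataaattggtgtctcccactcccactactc
Mrc1: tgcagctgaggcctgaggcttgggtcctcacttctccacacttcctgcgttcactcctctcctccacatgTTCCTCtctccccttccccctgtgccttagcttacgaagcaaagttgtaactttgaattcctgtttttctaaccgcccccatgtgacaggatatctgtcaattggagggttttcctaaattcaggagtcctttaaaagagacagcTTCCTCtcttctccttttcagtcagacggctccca
Marco: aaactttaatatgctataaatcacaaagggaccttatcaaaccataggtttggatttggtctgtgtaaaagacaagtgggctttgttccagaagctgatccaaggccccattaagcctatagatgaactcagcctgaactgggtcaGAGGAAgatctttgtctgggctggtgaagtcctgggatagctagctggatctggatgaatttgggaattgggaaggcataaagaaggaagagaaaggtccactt
Adgre1: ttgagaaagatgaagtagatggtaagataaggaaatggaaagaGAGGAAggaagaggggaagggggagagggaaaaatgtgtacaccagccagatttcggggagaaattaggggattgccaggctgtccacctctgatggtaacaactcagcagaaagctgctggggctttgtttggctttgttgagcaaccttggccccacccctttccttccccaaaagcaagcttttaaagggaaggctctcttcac
Of all 33469 rat promoter windows of this length, 23.3% hold GAGGAA on either strand, and of the 10 markers, with Timd4 counted here, 6 do, namely Marco, Cd5l, Cd68, Adgre1, Csf1r and Mrc1. Those 6 include a gene that fell (Mrc1), genes that rose (Marco, Adgre1 and Cd5l) and genes called under isoflurane alone (Csf1r and Cd68). The longer string GAGGAAGT was found in 0 of the 10 and in 2.04% of all windows. TTGCNNAA, a degenerate form of the C/EBP site, was present in Adgre1 and in 9.22% of all windows. TGANTCA, the AP-1 site, was present in Cd68 and in 6.34%, and CACGTG, an E-box, in 0 of the 10 and in 5.59%. All were searched on both strands, and the longer GAGGAAGT overlaps GAGGAA by construction.

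**Figure D1:**
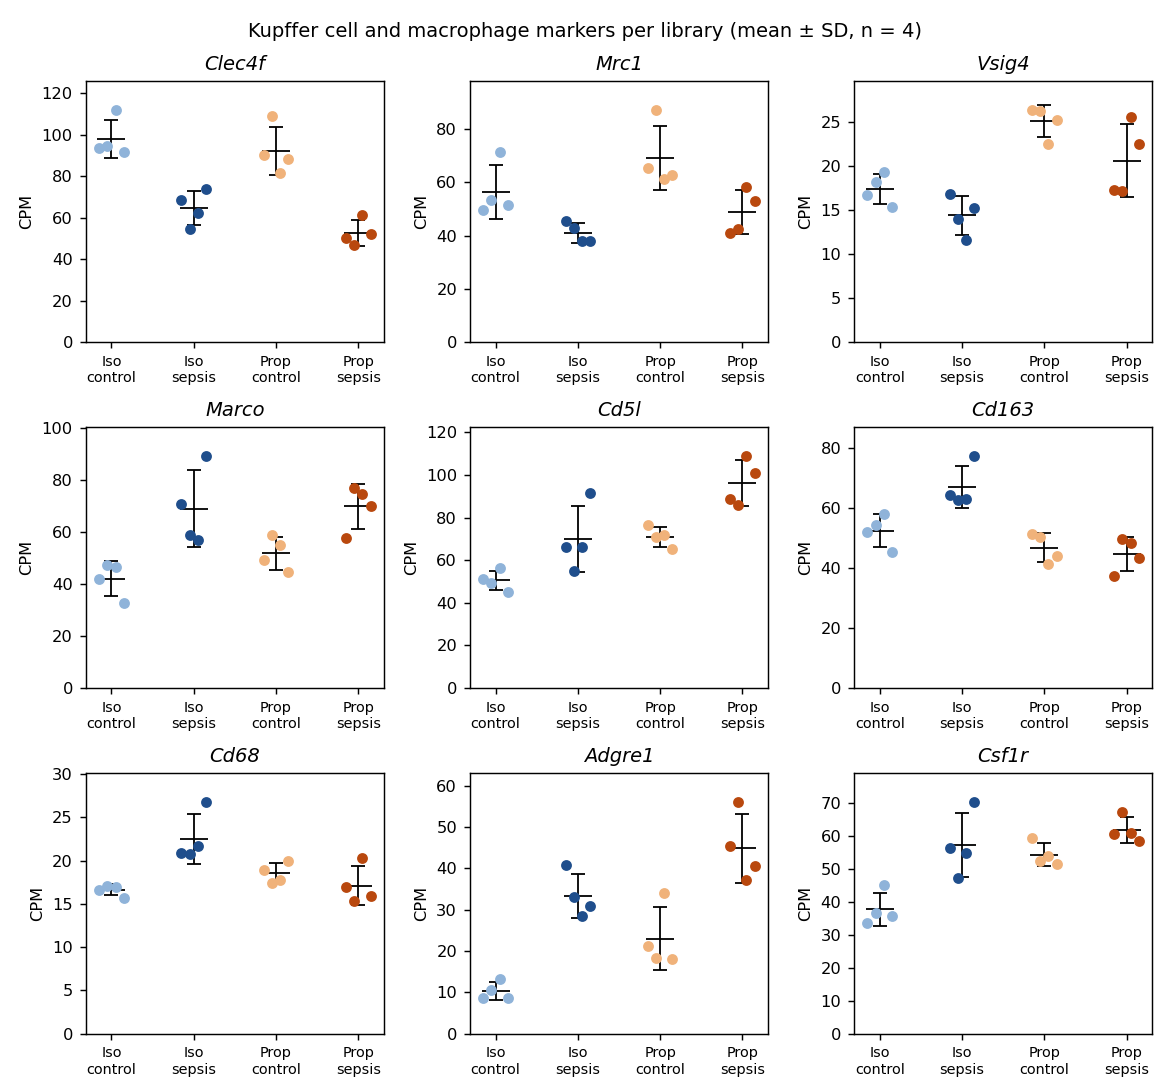
CPM of the 9 markers (y axis, from 0) in each library (points) of the 4 groups (x axis), with the mean and SD over 4 libraries as bars. Clec4f and Mrc1 lie lower in every septic library than in any control library of the same anesthetic, Adgre1 lies higher, and Adgre1 spans 8.59 to 13.2 CPM in isoflurane controls against 18.1 to 34.1 CPM in propofol controls.

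The first question is how the markers responded to CLP under isoflurane. Of the 9 markers, 2 fell (Clec4f and Mrc1), 6 rose (Adgre1, Marco, Csf1r, Cd5l, Cd68 and Cd163) and Vsig4 was not called. That is 8 of 9, where 50.0% of all 10361 genes tested were called, 24.4% lower and 25.7% higher. The groups did not overlap for 7 of the 9, against 48.7% of all genes (24.4% lower and 24.3% higher). The median log2 fold change was 0.44 over the markers and 0.006 over all genes.

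Under propofol the same 2 markers fell, 3 rose (Adgre1, Cd5l and Marco) and 4 were not called (Csf1r, Cd163, Cd68 and Vsig4). That is 5 of 9, where 42.1% of all 10348 genes tested were called, 21.7% lower and 20.4% higher. The groups did not overlap for 4 of the 9, against 42.2% of all genes (21.1% lower and 21.2% higher). The median log2 fold change was -0.07 over the markers and -0.002 over all genes. The rats of the 2 comparisons are different animals, and the comparisons share no library.

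**Figure D2:**
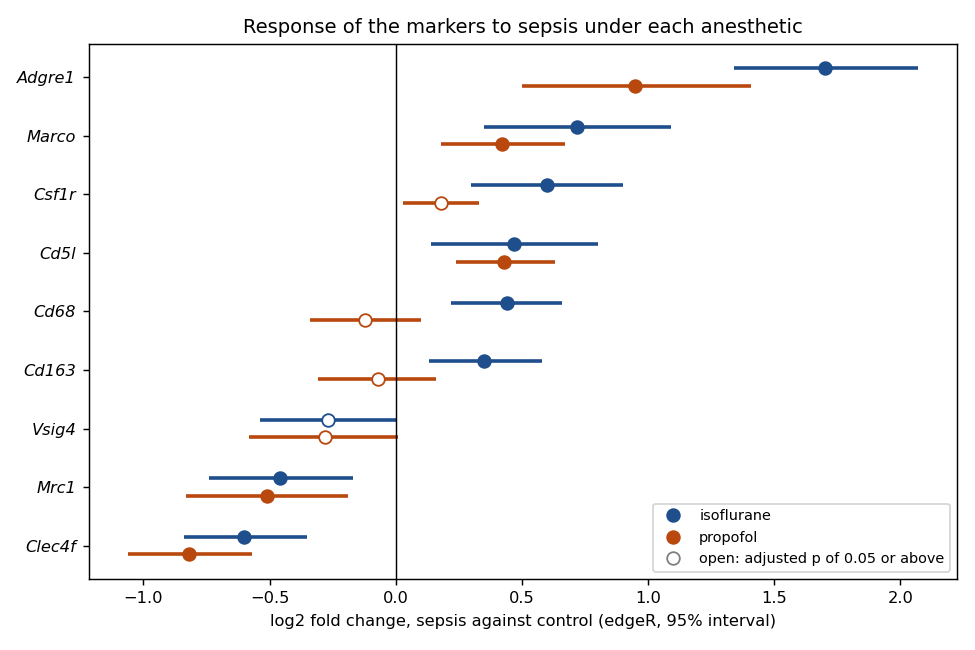
Log2 fold change of sepsis against control for each marker (x axis) under isoflurane and propofol, from edgeR, with 95% intervals as lines and open points where the adjusted p was 0.05 or above. Adgre1 is farthest to the right, at 1.70 under isoflurane and 0.95 under propofol, and Clec4f farthest to the left, at -0.60 and -0.82.

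Clec4f is a C-type lectin that in rodent liver is made by Kupffer cells and binds galactose-bearing glycans and desialylated platelets. It measured 93.8, 94.6, 112 and 91.9 CPM in isoflurane controls and 68.4, 54.5, 62.2 and 74.0 CPM in Isoflurane-Sepsis libraries. All 4 septic libraries were below all 4 controls, a 1.51-fold lower level (log2 -0.60, SE 0.107, edgeR adjusted p = 0.00213). In propofol controls it measured 90.3, 109, 81.7 and 88.3 CPM, and in Propofol-Sepsis libraries 50.1, 46.8, 61.5 and 52.1 CPM. The groups again did not overlap, with a 1.76-fold lower level (log2 -0.82, SE 0.109, adjusted p = 0.000387). The call was kept under all 14 alternative fits of each comparison.

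Mrc1, the mannose receptor, takes up mannose-ended glycoproteins and is made both by macrophages and by liver sinusoidal endothelium. It fell from 49.6, 53.2, 71.4 and 51.6 CPM in isoflurane controls to 45.5, 42.9, 38.1 and 37.9 CPM in sepsis, 1.37-fold (log2 -0.46, SE 0.124, edgeR adjusted p = 0.0144). Under propofol it fell from 65.3, 87.1, 61.1 and 62.9 CPM to 41.1, 42.6, 58.3 and 52.8 CPM, 1.42-fold (log2 -0.51, SE 0.144, adjusted p = 0.0178). Neither pair of groups overlapped, and 1 control library in each (library 7 and library 14) stood well above the other 3. Some markers of sinusoidal endothelium also fell. Of 7 tested, 4 fell under isoflurane (Kdr, Lyve1, Stab2 and Oit3), 0 rose and 3 were not called (median log2 -0.38). There 50.0% of all genes were called, 24.4% lower. Under propofol Kdr and Stab2 fell, Pecam1 rose and 4 were not called (median log2 -0.08), where 42.1% of all genes were called, 21.7% lower. Kdr, the VEGF receptor of endothelium, fell by 2.17 (adjusted p = 3.97e-05) and by 1.82 (adjusted p = 0.000102) on the log2 scale. The summed level of the 7 endothelial genes was 210, 222, 267 and 211 CPM in isoflurane controls and 158 to 179 CPM in sepsis, and 251, 298, 250 and 258 CPM in propofol controls and 219 to 232 CPM in sepsis. Libraries 7 and 14, the highest for Mrc1, were also the highest controls for this sum, and its part in the Mrc1 result was not tested.

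Vsig4, the complement receptor CRIg that binds C3b fragments on blood-borne bacteria, was lower on average in sepsis but not called. It measured 16.7, 18.1, 19.3 and 15.3 CPM in isoflurane controls and 16.8, 13.9, 11.6 and 15.2 CPM in sepsis, and these overlap (log2 -0.27, SE 0.121, edgeR adjusted p = 0.0913). Under propofol the levels were 26.3, 26.2, 22.4 and 25.2 CPM in controls and 17.2, 17.1, 25.5 and 22.5 CPM in sepsis (log2 -0.28, SE 0.132, adjusted p = 0.108). In Propofol-Sepsis, libraries 9 and 10 were lower than every control, and libraries 11 and 12 were within the control range. Leaving out library 1 under isoflurane (adjusted p = 0.0362) or library 11 under propofol (adjusted p = 0.0296) brought the gene to a call, and over all alternatives the adjusted p ranged from 0.0362 to 0.217 and from 0.0296 to 0.241. The transcript of its ligand, C3, was not called in either comparison (log2 0.05 and 0.11, adjusted p = 0.704 and 0.247), although it was under propofol without library 10 (0.0379).

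Marco, a class A scavenger receptor that binds bacteria, rose in both. Isoflurane controls had 42.1, 47.4, 46.5 and 32.6 CPM and Isoflurane-Sepsis libraries 70.9, 59.0, 57.1 and 89.4 CPM, all above every control (1.64-fold, log2 0.72, SE 0.164, edgeR adjusted p = 0.00671). Propofol controls had 49.2, 59.0, 54.9 and 44.6 CPM and Propofol-Sepsis libraries 57.7, 77.2, 74.8 and 70.2 CPM (1.34-fold, log2 0.42, SE 0.111, adjusted p = 0.0124). Here the groups overlapped, since library 9 (57.7 CPM) was below library 14 (59.0 CPM). Marco and Clec4f thus moved in opposite directions in the same libraries.

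Cd5l, a secreted scavenger protein of macrophages also called AIM, rose by similar amounts. It went from 51.1, 49.3, 56.4 and 45.2 CPM to 66.3, 55.1, 66.1 and 91.6 CPM under isoflurane (1.38-fold, log2 0.47, SE 0.146, edgeR adjusted p = 0.0253), where library 2 lay inside the control range. The call was lost without library 5 (adjusted p = 0.0568), library 6 (0.0651) or library 8 (0.0751), with a range of 0.00604 to 0.0751 over all alternatives. Under propofol it went from 76.3, 70.9, 71.8 and 65.1 CPM to 88.9, 85.9, 109 and 101 CPM with no overlap (1.35-fold, log2 0.43, SE 0.0874, adjusted p = 0.00340).

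Cd163 is the receptor through which macrophages take up haptoglobin-haemoglobin complexes. Isoflurane controls measured 52.2, 54.4, 58.2 and 45.3 CPM and Isoflurane-Sepsis libraries 64.5, 62.8, 63.2 and 77.5 CPM, all higher than the controls (1.28-fold, log2 0.35, SE 0.101, edgeR adjusted p = 0.0170). Without library 8 the adjusted p was 0.0504, at the end of a range that began at 0.00452. Under propofol the controls measured 51.4, 50.5, 41.4 and 44.1 CPM and the septic libraries 37.3, 49.8, 48.3 and 43.4 CPM, with no call (log2 -0.07, SE 0.105, 95% interval -0.31 to 0.16, adjusted p = 0.601). Hp, the transcript of its ligand haptoglobin, was not called under isoflurane (log2 0.09, adjusted p = 0.321) and rose slightly under propofol (log2 0.18, adjusted p = 0.0144).

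Cd68, a glycoprotein of macrophage lysosomes, rose under isoflurane from 16.6, 17.1, 17.0 and 15.7 CPM to 20.9, 20.7, 21.7 and 26.8 CPM without overlap (1.36-fold, log2 0.44, SE 0.0977, edgeR adjusted p = 0.00554). Propofol controls measured 18.9, 17.4, 17.8 and 20.0 CPM and Propofol-Sepsis libraries 16.9, 15.3, 20.3 and 15.9 CPM, of which 3 were below every control and library 11 above them (log2 -0.12, SE 0.0985, adjusted p = 0.345).

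Adgre1, which encodes the adhesion receptor F4/80 used to identify rodent macrophages, had the largest change of the 9. It rose from 8.75, 10.5, 13.2 and 8.59 CPM to 40.7, 33.1, 28.4 and 30.8 CPM under isoflurane (3.25-fold, log2 1.70, SE 0.162, edgeR adjusted p = 0.000115). Under propofol it rose from 21.3, 18.4, 34.1 and 18.1 CPM to 45.3, 56.1, 37.1 and 40.6 CPM (1.94-fold, log2 0.95, SE 0.205, adjusted p = 0.00476). No septic library overlapped its controls in either comparison. Library 15 (34.1 CPM) was far from the other propofol controls, and without it the log2 fold change was 1.21 (adjusted p = 0.000510).

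Csf1r, the receptor for Csf1 and Il34 on which macrophages depend, rose under isoflurane from 33.7, 36.6, 45.2 and 35.8 CPM to 56.4, 47.2, 55.0 and 70.5 CPM (1.52-fold, log2 0.60, SE 0.135, edgeR adjusted p = 0.00598), with no overlap. Under propofol it measured 59.4, 52.5, 54.1 and 51.6 CPM in controls and 60.6, 67.5, 60.9 and 58.5 CPM in sepsis, and was not called (log2 0.18, SE 0.0681, adjusted p = 0.0576). That value passed with DESeq2 (adjusted p = 0.0462) and without library 13 (0.0331), in a range of 0.0331 to 0.201. Il34 fell in both (log2 -0.44, adjusted p = 0.0227 and log2 -0.66, adjusted p = 0.00484), and the isoflurane call was lost without library 2 (0.0517) or library 7 (0.0575). Csf1 fell under propofol from 7.30 ± 1.20 to 3.05 ± 0.746 CPM (log2 -1.27, SE 0.191, adjusted p = 0.000724) and was 4.75 ± 0.180 and 3.83 ± 0.491 CPM under isoflurane (SD, n = 4 each, log2 -0.31, SE 0.119, adjusted p = 0.0558). Csf1 was called lower under isoflurane with library totals alone (log2 -0.38, adjusted p = 0.0244) and without library 4 (log2 -0.39, adjusted p = 0.0156).

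**Figure D3:**
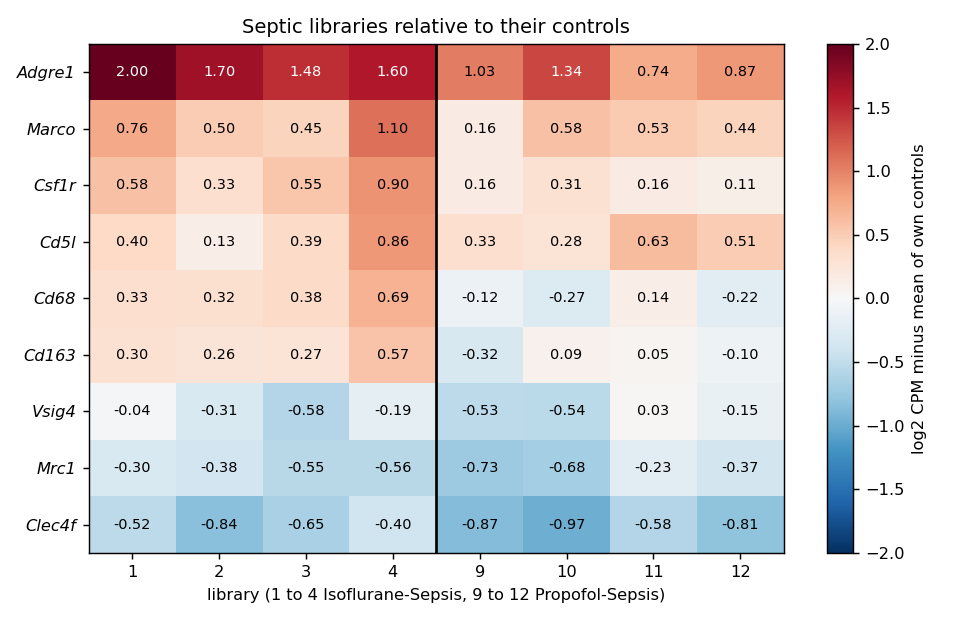
Log2 CPM of each septic library minus the mean log2 CPM of the 4 controls of the same anesthetic, per marker (rows, values in the cells) and library (columns), with red for higher and blue for lower. Clec4f and Mrc1 are negative in all 8 septic libraries and Adgre1, Marco, Csf1r and Cd5l positive in all 8, while Cd163 and Cd68 are positive in libraries 1 to 4 and mixed in libraries 9 to 12.

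Library by library, library 4 was the highest of the Isoflurane-Sepsis libraries for Cd163, Marco, Clec4f, Cd5l, Cd68 and Csf1r, but not for Adgre1, Vsig4 or Mrc1. Without library 4 the log2 fold changes under isoflurane were 0.28 for Cd163, 0.57 for Marco, -0.66 for Clec4f, 0.32 for Cd5l, 0.35 for Cd68 and 0.49 for Csf1r, and each stayed called. Deviations from the group means were compared between markers over the 16 libraries as a description, since all values of a library share its depth and its pool of rats. Among the 8 markers other than Adgre1, Pearson's r lay between 0.05 (Cd68 and Mrc1) and 0.78 (Cd163 and Marco), and it was near 0 also for Csf1r and Mrc1 (0.08). Clec4f and Marco, which responded to sepsis in opposite directions, had r of 0.56 within groups. Adgre1 had r between -0.32 (Cd68) and 0.34 (Csf1r) with the others.

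A ratio of reads within a library does not depend on scaling, so the markers were also set against Clec4f, a choice made after the values had been seen and therefore given without a test. Reads of Marco per read of Clec4f were 0.449, 0.501, 0.415 and 0.354 in isoflurane controls and 1.04, 1.08, 0.918 and 1.21 in sepsis. In propofol controls they were 0.545, 0.543, 0.672 and 0.505, and in sepsis 1.15, 1.65, 1.22 and 1.35. For Cd163 the ratio to Clec4f was 0.493 to 0.575 in isoflurane controls and 0.944 to 1.15 in sepsis, and 0.464 to 0.569 in propofol controls and 0.745 to 1.06 in sepsis. Since Clec4f fell, a gene whose own level was not called, as Cd163 under propofol, also has a higher ratio in sepsis. For Cd5l the ratio was 0.492 to 0.545 and 0.970 to 1.24 with isoflurane, and 0.652 to 0.879 and 1.77 to 1.94 with propofol.

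**Figure D4:**
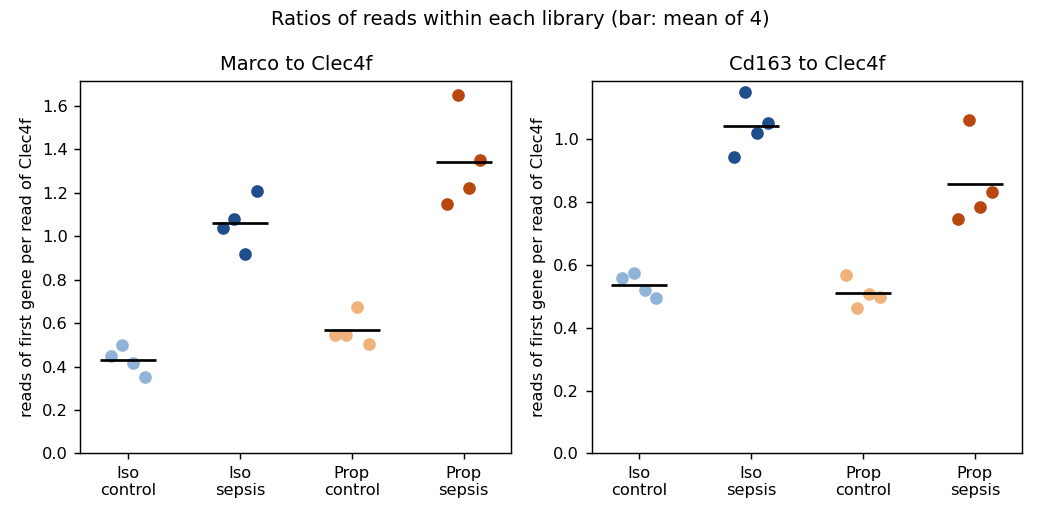
Reads of Marco (left) and Cd163 (right) per read of Clec4f in each library (y axis, from 0), by group (x axis), with the mean of 4 libraries as a bar. In both panels every septic library lies above every control library, for Marco at 0.918 or more against 0.672 or less.

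The next question is whether the response to sepsis differed between the anesthetics, which was tested for each marker as the isoflurane response minus the propofol response in 1 fit of all 16 libraries. Of the 9 markers, 1 was called, Cd68 (log2 difference 0.56, SE 0.140, edgeR adjusted p = 0.0473), where 2.72% of all 10621 genes were called, 1.66% with the larger value under isoflurane. The Cd68 call was lost in 16 of 21 alternative fits, among them scaling by library totals (adjusted p range 0.00826 to 0.0971 over all of them), while the difference stayed between 0.46 and 0.65. Leaving out any 1 library except library 1, 2 or 11 was enough to lose it. The differences were 0.74 for Adgre1 (SE 0.286, adjusted p = 0.138), 0.42 for Cd163 (SE 0.151, adjusted p = 0.120) and 0.41 for Csf1r (SE 0.156, adjusted p = 0.133), and none of these was called. Their 95% intervals, which are not adjusted for the number of genes, were positive throughout (0.14 to 1.35, 0.10 to 0.74 and 0.08 to 0.74). For Clec4f the difference was 0.21 with a 95% interval of -0.13 to 0.55, for Marco 0.29 (-0.17 to 0.74), for Vsig4 0.01 (-0.40 to 0.42), for Cd5l 0.03 (-0.35 to 0.41) and for Mrc1 0.05 (-0.38 to 0.48). So for Csf1r and Cd163, called under isoflurane and not under propofol, a difference in the response itself was not shown after adjustment over all genes.

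Levels were also compared between the anesthetics without sepsis and after it, in the same fit of 16 libraries. These contrasts reuse the libraries of the comparisons above. In controls, 4 of the 9 markers were lower with isoflurane than with propofol and 0 higher, where 26.3% of all genes were called, 13.3% lower. Adgre1 was 2.25-fold lower (log2 -1.17, SE 0.208, edgeR adjusted p = 0.00100), Vsig4 1.44-fold (log2 -0.53, SE 0.135, adjusted p = 0.00933), Csf1r 1.44-fold (log2 -0.52, SE 0.111, adjusted p = 0.00300) and Cd5l 1.41-fold (log2 -0.49, SE 0.127, adjusted p = 0.0104). For each of these 4, and for Cd68, every isoflurane control was below every propofol control, which is 5 of 9 where 39.7% of all genes did not overlap, 19.6% being lower. Scaling matters here, since with library totals alone the median of all genes moved to -0.147, and 7 of the 9 markers were then called lower, Marco, Cd68 and Mrc1 being the additions. Clec4f and Cd163 were not called with either scaling, and the Clec4f difference was 0.09 with TMM and -0.06 with library totals.

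In septic livers, 5 of the 9 markers differed between the anesthetics, 2 lower and 3 higher with isoflurane, where 38.6% of all genes did, 19.0% lower and 19.6% higher. The groups did not overlap for 3 of the 9 (Cd163, Cd68 and Vsig4), against 25.1% of all genes, 12.5% in each direction. Cd163 was 1.50-fold higher with isoflurane (log2 0.58, SE 0.107, edgeR adjusted p = 0.00102), and the 4 Isoflurane-Sepsis libraries (62.8 to 77.5 CPM) did not overlap the 4 Propofol-Sepsis libraries (37.3 to 49.8 CPM). Cd68 was 1.32-fold higher (log2 0.40, SE 0.0990, adjusted p = 0.00624), also without overlap. Clec4f was 1.23-fold higher (log2 0.30, SE 0.113, adjusted p = 0.0474), a call lost in 15 of 22 alternatives (range 0.0193 to 0.286). Vsig4 was 1.43-fold lower (log2 -0.52, SE 0.137, adjusted p = 0.00848) and Cd5l 1.38-fold lower (log2 -0.47, SE 0.127, adjusted p = 0.0102). With only the 8 septic libraries in the fit, Cd163 alone was called. Library totals moved the median of all genes to -0.162, with Clec4f and Cd68 then not called (adjusted p for Cd68 0.0537), Adgre1 and Mrc1 called lower, and Cd163, Vsig4 and Cd5l still called in the same directions.

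Among 10 other genes typical of Kupffer cells, 2 fell, 2 rose and 6 were not called under isoflurane, where 50.0% of all genes were called. Under propofol 2 fell, 1 rose and 7 were not called, where 42.1% of all genes were called. Their median log2 fold changes were -0.03 and -0.26. The same shares of all genes stand beside the counts of every further list. Il18bp, which encodes a secreted inhibitor of interleukin-18, rose in both (log2 1.37, adjusted p = 9.35e-05 and log2 1.56, adjusted p = 0.00102). Siglec1, the sialic acid receptor sialoadhesin, fell in both (log2 -0.49, adjusted p = 0.0273 and log2 -0.46, adjusted p = 0.0112), with the isoflurane call lost without library 2, 3, 6, 7 or 8 (adjusted p 0.0522 to 0.0766) and with thinned counts (0.0580). Fabp7 fell under isoflurane (log2 -1.17, SE 0.170, edgeR adjusted p = 0.000753). Under propofol its change was not called (log2 -0.64, adjusted p = 0.0938), nor was the difference between the responses (log2 -0.54, adjusted p = 0.376). C1qa, a chain of complement C1q, rose under isoflurane (log2 0.31, SE 0.0978, adjusted p = 0.0274), a call lost without library 3, 4, 5 or 8 (adjusted p 0.0535 to 0.0817) and with library totals alone (0.0639). Lilra5 fell under propofol (log2 -0.76, SE 0.232, adjusted p = 0.0253), and this was lost without library 12, 13, 15 or 16 (adjusted p 0.0552 to 0.0664).

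Of 9 transcription factors of Kupffer cells, 2 fell and 4 rose under isoflurane, where 50.0% of all genes were called. Under propofol 2 fell and 3 rose, where 42.1% of all genes were called. Nr1h3, which encodes LXR alpha and is also made by hepatocytes, fell from 70.4 ± 4.23 to 36.8 ± 5.03 CPM (log2 -0.93, SE 0.0959, edgeR adjusted p = 0.000168) and from 94.1 ± 3.08 to 58.0 ± 7.83 CPM (log2 -0.71, SE 0.0952, adjusted p = 0.000403). Maf fell in both (log2 -0.37 and -0.39, adjusted p = 0.0307 and 0.0214), calls that were lost without library 2, 4, 7 or 8 (adjusted p 0.0587 to 0.0778) and without library 12, 14 or 16 (0.0565 to 0.0666). Spi1, which encodes PU.1, rose from 2.83 ± 0.343 to 8.25 ± 1.80 CPM under isoflurane (log2 1.54, SE 0.176, adjusted p = 0.000247) and from 5.29 ± 0.639 to 6.66 ± 0.243 CPM under propofol (log2 0.33, SE 0.115, adjusted p = 0.0433). The propofol call for Spi1 was lost in 11 of 14 alternatives, with an adjusted p of 0.109 without library 15 in a range of 0.0334 to 0.109. The response of Spi1 differed between the anesthetics (log2 difference 1.20, SE 0.205, adjusted p = 0.0122) in all 21 alternatives as well. In controls Spi1 was lower with isoflurane than with propofol (log2 -0.89, adjusted p = 0.000650). Its level in septic livers was not called different (log2 0.31, adjusted p = 0.0917). The part of monocytes and neutrophils in the rise of Spi1 was not tested. Spic, a factor of haem-handling macrophages, rose in both (log2 1.27 and 1.74, adjusted p = 0.00231 and 0.000372) at levels of 0.564 to 2.10 CPM as group means. Id3, an inhibitor of basic helix-loop-helix factors, rose under isoflurane (log2 0.67, SE 0.115, adjusted p = 0.00172) and was not called under propofol (log2 -0.15, adjusted p = 0.358).

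Among the 7 tested growth factors and niche signals, 2 fell and 2 rose under isoflurane, where 50.0% of all genes were called. Under propofol 3 fell and 1 rose, where 42.1% of all genes were called. Gdf2, which encodes BMP9 and is made by stellate cells, fell in both (log2 -0.80, adjusted p = 0.00542 and log2 -0.68, adjusted p = 0.000621). Jag1, a Notch ligand, and Tgfb1 rose under isoflurane (log2 0.86 and 0.64, adjusted p = 0.00201 and 0.00465), and Tgfb1 rose under propofol (log2 0.34, adjusted p = 0.0170), although not without library 14 (0.0510).

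For haemoglobin and haem handling, 1 of 5 genes fell and 1 rose under isoflurane, where 50.0% of all genes were called. Under propofol 3 fell and 1 rose, where 42.1% of all genes were called. Blvrb, a biliverdin reductase, fell in both (log2 -0.85, adjusted p = 6.72e-05 and log2 -0.72, adjusted p = 0.00181). Hmox1, which opens the haem ring, rose under isoflurane (log2 2.04, SE 0.512, edgeR adjusted p = 0.00999) and was not called under propofol (log2 -0.98, SE 0.371, adjusted p = 0.0579). Slc40a1, the iron exporter ferroportin, fell under propofol (log2 -0.56, adjusted p = 0.00506).

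Of 9 other scavenger and efferocytosis receptors, 3 fell and 2 rose in each comparison, where 50.0% and 42.1% of all genes were called. The receptor kinases Axl and Mertk, which bind the same ligand Gas6 on dying cells, went in opposite directions. Axl fell from 9.92 ± 0.725 to 3.92 ± 0.599 CPM and from 14.4 ± 1.33 to 7.64 ± 1.09 CPM (log2 -1.33 and -0.92, adjusted p = 0.000105 and 0.000289). Mertk rose from 16.2 ± 0.705 to 31.9 ± 4.37 CPM and from 12.9 ± 1.41 to 22.4 ± 2.18 CPM (log2 0.98 and 0.79, adjusted p = 0.000194 and 0.000317). Msr1, a class A scavenger receptor like Marco, rose (log2 0.91, adjusted p = 0.00534 and log2 0.47, adjusted p = 0.00505). Lrp1 fell in both (log2 -0.66 and -0.21, adjusted p = 0.00231 and 0.0319), as did Stab2 (log2 -0.64 and -0.44, adjusted p = 0.00446 and 0.00151).

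Cd163 and Csf1r can be released from the cell surface by proteases, which RNA does not show. Of 4 sheddases and regulators, Adam17 was not called (log2 0.20 and 0.06, edgeR adjusted p = 0.235 and 0.543). Rhbdf2, which encodes the partner iRhom2 needed for ADAM17 maturation, rose from 7.12 ± 0.560 to 28.7 ± 4.54 CPM and from 7.63 ± 1.12 to 21.9 ± 5.40 CPM (log2 2.01 and 1.52, adjusted p = 2.20e-05 and 0.000197). Adam10 rose under propofol (log2 0.30, adjusted p = 0.0171) and narrowly missed a call under isoflurane (log2 0.27, adjusted p = 0.0502). The difference between the 2 responses of Adam10 was not called (log2 -0.04, adjusted p = 0.878). In counts, 1 of the 4 rose under isoflurane and 2 under propofol, and 0 fell, where 25.7% and 20.4% of all genes rose.

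**Figure D5:**
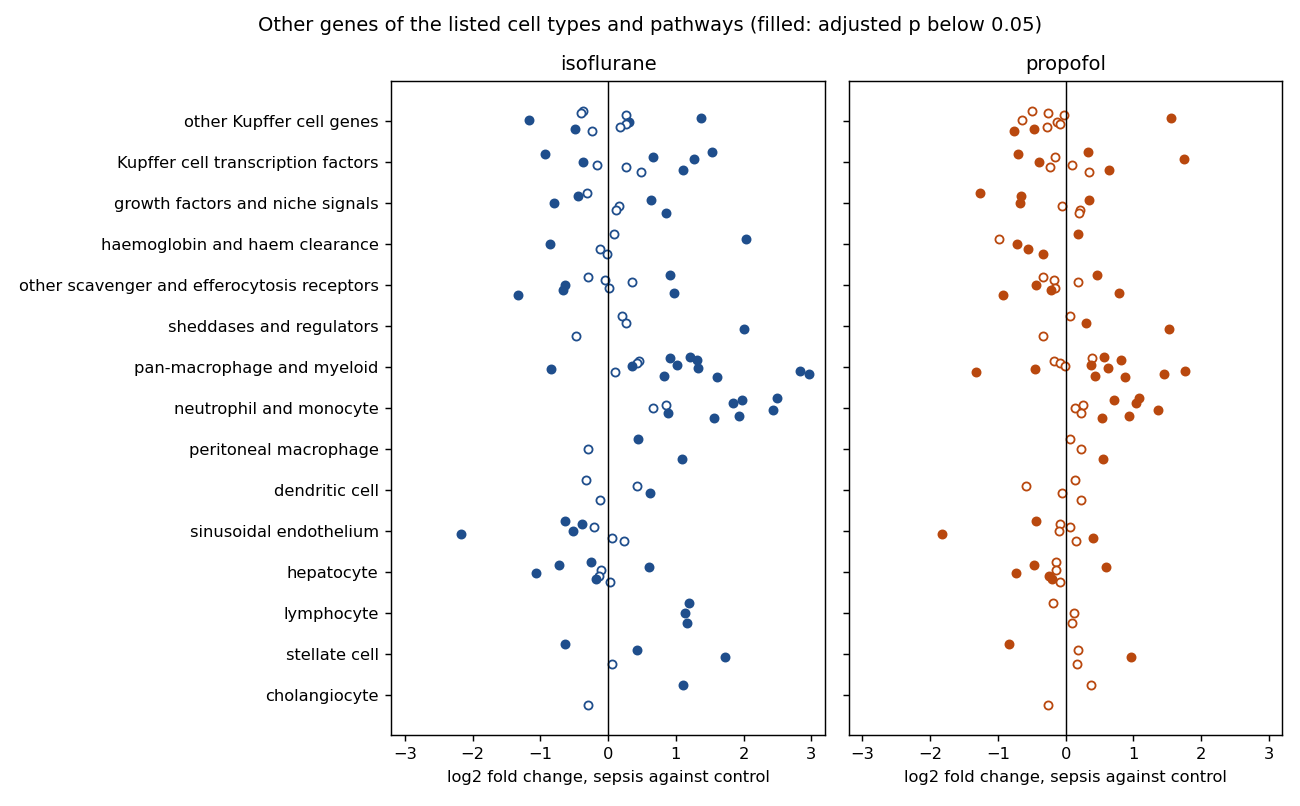
Log2 fold change of sepsis against control (x axis) for each tested gene of 15 lists (rows), under isoflurane (left) and propofol (right), with filled points where the edgeR adjusted p was below 0.05. The neutrophil and monocyte genes lie to the right of 0 in both panels, with medians of 1.85 and 0.71, while the sinusoidal endothelium holds the far left point, Kdr at -2.17 and -1.82.

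Genes of other blood-derived cells moved in the same libraries. Of 14 genes shared by macrophages and other myeloid cells, 10 rose and 1 fell under isoflurane, where 25.7% of all genes rose. Under propofol 8 rose and 2 fell, where 20.4% of all genes rose. Itgam and Fcer1g had the smallest adjusted p among those that rose under isoflurane (log2 2.96 and 1.31, adjusted p = 0.000209 and 0.000187), and Fcer1g and Cd14 under propofol (log2 0.81 and 1.76, adjusted p = 0.000123 and 0.000246). Mpeg1, the perforin-like protein of macrophages, fell (log2 -0.84, adjusted p = 0.000450 and log2 -0.45, adjusted p = 0.00354), and Fcgr1a fell under propofol (log2 -1.33, adjusted p = 0.000377). Of 9 neutrophil and monocyte genes tested, 7 rose under isoflurane and 6 under propofol, and 0 fell, where 25.7% and 20.4% of all genes rose. The smallest adjusted p was that of S100a8, a calcium-binding protein of these cells (log2 2.49, adjusted p = 0.000694 and log2 1.09, adjusted p = 0.000289). Plac8 came next under isoflurane (log2 1.57, adjusted p = 0.00100) and S100a9, the partner of S100a8, under propofol (log2 0.71, adjusted p = 0.00311).

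The summed level of 11 neutrophil and monocyte genes was 19.7 to 22.3 CPM in isoflurane controls and 35.5, 73.9, 114 and 97.5 CPM in Isoflurane-Sepsis libraries. In propofol controls it was 22.6 to 29.0 CPM and in Propofol-Sepsis libraries 47.8, 53.9, 41.4 and 38.6 CPM. S100a8 and S100a9, with means of 26.1 and 33.5 CPM in Isoflurane-Sepsis, made up much of the sum there. Adgre1 was highest in library 1, at 40.7 CPM, where this sum was the lowest of the Isoflurane-Sepsis libraries. Csf1r and Cd68 were highest in library 4, at 70.5 and 26.8 CPM, where the sum was 97.5 CPM, below that of library 3. In Propofol-Sepsis, Adgre1 and Csf1r were highest in library 10, at 56.1 and 67.5 CPM, where the sum was highest too. Cd68 was highest in library 11, at 20.3 CPM, where the sum was 41.4 CPM. The part of monocytes and neutrophils in the rise of the markers that monocytes also carry, such as Csf1r, Cd68 and Adgre1, was not tested. For macrophages of the peritoneum, 2 of 3 genes tested rose under isoflurane and 1 under propofol, where 25.7% and 20.4% of all genes rose. Prg4 rose in both (log2 1.09 and 0.55, edgeR adjusted p = 0.000975 and 0.000730). Gata6 rose under isoflurane (log2 0.44, adjusted p = 0.00883), a call lost with thinned counts (0.0531). It already stood at 8.29 ± 0.465 CPM in isoflurane controls and 7.88 ± 0.513 CPM in propofol controls. Alox15 was not called in either comparison (log2 -0.30 and 0.22, adjusted p = 0.363 and 0.640). Prg4, at group means of 660 to 1403 CPM, is also made by hepatocytes.

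For each marker, the non-member genes whose log2 CPM followed it most closely over the 16 libraries were sought among 9759 genes, as a description in which differences between the 4 groups and everything a library shares enter the correlation. The closest to Vsig4 was Siglec1, with Pearson's r of 0.96. For Cd5l the closest was Fcgr3a at 0.95, for Csf1r Cmklr1 at 0.94, for Marco Cd48 at 0.93, for Cd163 Ctss at 0.92 and for Mrc1 F3 at 0.92. Clec4f was closest to Fabp2, Ctsc and Eif2ak4, each at 0.94, Adgre1 to Utp20, Ttc39b and Tlr2, each at 0.94, and Cd68 to Slfn3 at 0.89. On deviations from the group means the nearest genes were others, Irf5 for Cd163 at 0.86, Il1a for Marco at 0.91, Gpr19 for Cd5l at 0.93, Timp1 for Csf1r at 0.95, Mzt2b for Vsig4 at 0.90, Psme1 for Cd68 at 0.89, Rapgef5 for Adgre1 at 0.88, Zdhhc23 for Mrc1 at 0.89 and Pyroxd1 for Clec4f at 0.83.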

How the data were processed

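Liver RNA of 48 rats was sequenced as 16 pools of 3 rats, 4 per group, from polyadenylated RNA with a stranded single-end protocol. Per library the authors deposited counts, whole numbers of reads per gene symbol and not normalized. The submitters' processing notes name STAR and the build rn5. The counting program and annotation were not stated in them or in the paper. Reads outside genes (21.6% to 25.4%) and ambiguous reads (1.07% to 1.35%) entered neither library sizes nor tests.

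Groups came from the sample labels. Sepsis was compared with control in separate fits of 4 libraries against 4, and the interaction and the anesthetic contrasts in 1 fit of 16, by edgeR 4.0.16 (quasi-likelihood test, R 4.3.3) with TMM scaling, filterByExpr (minimum count 10, minimum total 15) and Benjamini-Hochberg adjustment over all genes tested. Each SE is the log2 fold change divided by the root of F, and intervals are 95%. No source says that pools were prepared apart, so p-values measure the spread between these pools. Alternatives were RLE size factors, library totals alone, DESeq2 1.42.0, no filter, thinning to the shallowest library, other libraries in the fit, and each library left out. Log2 CPM for likeness used a prior count of 2 and genes of mean CPM at least 1, and named the 3 nearest genes or the first of them.

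The markers and the 15 further lists were chosen with earlier results of these data known. All markers are named, and of each list in either direction up to 2 called genes of smallest adjusted p, besides Hp, C3, Csf1, Il34 and Adam17. Other names were chosen after their values were seen. Stab2 stands in 2 lists. Fcna was found under an older symbol. Promoters and symbols are from RefSeq on GRCr8, so no coordinates of genes are given on rn5. Transcript lengths on rn5 were not used here.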

Additional observations from a re-analysis of the deposited data

Results flagged for a closer look

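Among the 36 groups of 4 libraries formed by 9 markers and 4 groups, 5 held a library that stood apart. Its gap to its nearest neighbour, divided by the range of the group, exceeded Dixon's critical value at 95%. Chance alone gives about 1 in 20, but the 36 groups share libraries and are not independent. Library 4 of Isoflurane-Sepsis stood apart for Cd163, at 77.5 CPM against 62.8 to 64.5 CPM in the other 3, and for Cd68, at 26.8 CPM against 20.7 to 21.7 CPM. Isoflurane control library 7 stood apart for Clec4f, at 112 CPM, and for Mrc1, at 71.4 CPM. Propofol control library 14 stood apart for Mrc1, at 87.1 CPM.

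By the interaction test of edgeR, with isoflurane minus propofol as its sign, Cd68 was called among the markers (log2 difference 0.56, SE 0.140, adjusted p = 0.0473). So were 5 genes of the other lists. These were Spi1 (1.20, SE 0.205, adjusted p = 0.0122), Fcgr1a (1.42, SE 0.295, adjusted p = 0.0269), Id3 (0.81, SE 0.171, adjusted p = 0.0292), Hmox1 (3.00, SE 0.680, adjusted p = 0.0360) and Csf1 (0.95, SE 0.225, adjusted p = 0.0403). In controls, Spi1 and Csf1 were lower with isoflurane than with propofol (log2 -0.89 and -0.62, adjusted p = 0.000650 and 0.00813). In septic livers neither was called (log2 0.31 and 0.33, adjusted p = 0.0917 and 0.125). Fcgr1a, Id3 and Hmox1 were not called in controls and were higher with isoflurane in sepsis. Fcgr1a, the high-affinity IgG receptor, was at 2.93 to 3.96 CPM in propofol controls and at 1.19 to 1.60 CPM in Propofol-Sepsis, and at 2.90 to 5.86 CPM in Isoflurane-Sepsis. Hmox1 ranged from 375 to 2125 CPM in Isoflurane-Sepsis and from 193 to 339 CPM in Propofol-Sepsis. Its controls ranged from 144 to 320 CPM with isoflurane and from 199 to 803 CPM with propofol. Of 21 alternatives the call was lost in 16 for Cd68 (adjusted p 0.00826 to 0.0971), 6 for Fcgr1a (0.00141 to 0.0642), 7 for Id3 (0.00176 to 0.0668), 11 for Hmox1 (0.00339 to 0.0761), 13 for Csf1 (0.00491 to 0.0862) and 0 for Spi1 (5.93e-05 to 0.0365).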

How the results depend on the processing

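No paired analysis was possible because each library carries its own number and the groups share none. The count of markers called stayed within 1.5 times the reported count under every alternative for both sepsis comparisons. For the interaction it was 1 and became 0 with library totals alone, with no filter and with thinned counts, and it ranged from 0 to 1 with a library left out. In controls it was 4 and became 7 with library totals alone, and in septic livers 5 became 1 with only the 8 libraries compared. Of all genes, the interaction called 289 against 847 with DESeq2, 168 with no filter and 54 to 1615 with a library left out, the last without library 1. The control contrast called 2793 against 4468, and the septic contrast 4099 against 1982, with only the 8 libraries compared. Signs turned for values near 0 that were never called. C3 under isoflurane was -0.0172 with library totals and ranged from -0.0257 to 0.13 with a library left out, Clec4f in controls was -0.056 with library totals, and Marco in septic livers was 0.00245 with thinned counts and ranged from -0.166 to 0.0645 with a library left out. With a library left out, the interaction ranged from -0.0776 to 0.125 for Vsig4, -0.131 to 0.124 for Cd5l and -0.0838 to 0.18 for Mrc1. The causes were not tested. Each marker value rested on 186 reads or more.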

Other observations

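Among markers of further liver cell types, 4 of 8 hepatocyte genes fell and 1 rose in each comparison. Called were 50.0% of all genes under isoflurane and 42.1% under propofol. Hnf4a, the hepatocyte nuclear receptor, fell from 679 ± 15.5 to 325 ± 50.6 CPM under isoflurane and from 967 ± 36.1 to 584 ± 40.6 CPM under propofol (SD, n = 4, log2 -1.06 and -0.73, edgeR adjusted p = 0.000155 and 5.63e-05), and Apob rose by 0.60 on the log2 scale in both (adjusted p = 0.00414 and 0.000168). Apoa1 fell in both (log2 -0.73 and -0.46, adjusted p = 0.00706 and 0.00711), as did Serpinc1 (log2 -0.18 and -0.20, adjusted p = 0.0358 and 0.00654). Of 4 stellate cell genes, Lrat, the retinol esterase of these cells, fell (log2 -0.64 and -0.83, adjusted p = 0.00200 and 0.00435), the matrix gene Dcn rose (log2 1.72 and 0.96, adjusted p = 0.000109 and 0.00244), and Pdgfrb rose under isoflurane (log2 0.43, adjusted p = 0.0280), although not with thinned counts (0.0542) or without library 6, 7 or 8 (0.0656 to 0.0796).

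Lymphocyte genes were near the detection limit, with a sum of 7 genes between 1.63 and 6.47 CPM over all libraries. The 3 that passed the filter rose under isoflurane, among them Klrd1 and Cd8a (log2 1.16 and 1.19, edgeR adjusted p = 0.00459 and 0.00987, the Klrd1 call being lost with thinned counts at 0.0886), and 0 were called under propofol (Klrd1 log2 0.09, Cd8a log2 -0.18). The differences between the anesthetics were not called for Klrd1 (log2 1.06, adjusted p = 0.122) or Cd8a (log2 1.36, adjusted p = 0.0603). Of 4 dendritic cell genes, Clec9a rose under isoflurane (log2 0.62, adjusted p = 0.0440), a call lost without library 1, 2, 5, 7 or 8 (0.0676 to 0.121), with library totals alone (0.0694) or with no filter (0.0668), and 0 were called under propofol. Of 2 cholangiocyte genes, Krt19 rose under isoflurane (log2 1.10, adjusted p = 0.0412), a call lost without any 1 of libraries 2 to 8 (0.0508 to 0.100) or with library totals alone (0.0503), and 0 were called under propofol.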
